A study of Mus musculus with 8 samples.

Results

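The 10 genes that encode the core subunits of the SWI/SNF chromatin remodeling complexes were examined for binding of PBRM1 and BRG1 in mouse uterine stromal cells. The genes, taken by name, were *Smarca4*, *Smarca2*, *Smarcb1*, *Smarcc1*, *Smarcc2*, *Smarcd1*, *Smarcd2*, *Smarcd3*, *Smarce1* and *Actl6a*, 10 of 21951 protein-coding genes of the annotation. Promoter peaks were those no farther than 2000 bp from any transcription start site (TSS) of the gene, and gene-body peaks were those in the gene but outside these windows.

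SWI/SNF complexes use the energy of ATP to slide or evict nucleosomes. Each complex holds 1 ATPase, either BRG1 (product of *Smarca4*) or BRM (product of *Smarca2*), on a scaffold of core subunits that the canonical BAF complex and the PBAF complex share. PBRM1 is a bromodomain subunit of PBAF only, so that the PBRM1 antibody marks 1 class of complex and the BRG1 antibody marks every class built on that ATPase. The genes examined here therefore encode BRG1, its alternative BRM and the subunits that assemble with them, and *Smarca4* encodes the antigen of one of the antibodies.

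The assay was ChIC-Seq, in which an antibody directs a protein A/G fusion of micrococcal nuclease to fixed chromatin and the released fragments are sequenced. Stromal cells were taken as primary cells from the uteri of WT mice aged 8 to 12 weeks on D4, isolated by enzyme digestion from the horns of 5 to 10 mice per preparation and plated for some hours before fixation. The sample labels call this pregnancy and the extraction text calls it pseudopregnancy. The groups were PBRM1 and BRG1, each with 3 replicate libraries and 1 list called by the authors on the pooled fragments, and all cells were of the same genotype, cell type and day. Only the antibody differed, and 2 IgG libraries were not analysed here. The PBRM1 replicates held between 8868777 and 16505239 fragments and gave 21912 to 26363 peaks, and the BRG1 replicates held between 11506964 and 14595089 fragments and gave 36656 to 40610 peaks. The paper calls the replicates biological, and the labels do not say whether they came from separate mice, so p-values measure the spread between these libraries. Peaks were called against local background without a control library.

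The sequences that the following results return to are shown first, read from the GRCm38.p6 genome (mm10) 5′ to 3′ on the strand of the gene. The first 5 are the 200 bases before a start site and the sixth reaches 100 bases to each side of a summit inside *Smarcb1*, and none of them overlaps an exon of its gene. Capitals mark exact matches, on either strand, to strings tied to the NRF1, SP/KLF, ETS or AP-1 factors. They show the promoters of both ATPase genes, the internal starts of *Smarca2* and *Smarcc1*, the first promoter of *Smarcd3* and the only gene-body site found in every library.
Smarca4 promoter, chr9:21615969-21616168, plus strand: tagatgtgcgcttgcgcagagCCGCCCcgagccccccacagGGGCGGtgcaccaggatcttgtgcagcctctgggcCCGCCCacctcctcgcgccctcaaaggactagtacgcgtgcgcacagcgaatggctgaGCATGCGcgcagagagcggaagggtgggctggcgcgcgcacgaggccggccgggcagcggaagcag
Smarca2 first promoter, chr19:26604850-26605049, plus strand: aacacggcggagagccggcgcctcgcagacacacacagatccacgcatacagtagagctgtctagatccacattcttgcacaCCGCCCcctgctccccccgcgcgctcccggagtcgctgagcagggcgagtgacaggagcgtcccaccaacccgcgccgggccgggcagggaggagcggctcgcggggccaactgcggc
Smarca2 internal promoter, chr19:26747400-26747599, plus strand: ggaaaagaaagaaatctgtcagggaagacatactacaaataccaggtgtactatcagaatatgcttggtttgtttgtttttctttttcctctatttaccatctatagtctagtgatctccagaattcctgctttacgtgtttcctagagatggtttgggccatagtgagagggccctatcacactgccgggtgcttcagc
Smarcc1 internal promoter, chr9:110131780-110131979, plus strand: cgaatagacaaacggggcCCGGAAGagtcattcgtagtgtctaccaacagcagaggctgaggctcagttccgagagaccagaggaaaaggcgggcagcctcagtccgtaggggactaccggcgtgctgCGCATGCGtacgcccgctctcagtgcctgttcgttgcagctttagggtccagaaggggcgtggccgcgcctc
Smarcd3 first promoter, chr5:24624412-24624611, minus strand: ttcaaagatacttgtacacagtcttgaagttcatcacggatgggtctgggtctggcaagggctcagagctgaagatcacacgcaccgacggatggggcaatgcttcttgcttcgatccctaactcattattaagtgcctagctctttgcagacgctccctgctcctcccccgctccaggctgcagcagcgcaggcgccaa
Smarcb1 gene-body site, chr10:75898981-75899181, minus strand: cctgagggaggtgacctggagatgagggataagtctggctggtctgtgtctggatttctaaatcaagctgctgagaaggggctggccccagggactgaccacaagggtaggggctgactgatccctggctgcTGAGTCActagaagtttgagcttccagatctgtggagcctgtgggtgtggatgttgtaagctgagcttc

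To determine whether the core subunit genes carried either protein at their start sites, promoter peaks were counted in every list. All 10 genes had a promoter peak in each of the 3 PBRM1 replicates, each of the 3 BRG1 replicates and both pooled lists. Such peaks were common in these cells. Among all protein-coding genes, 68.7% had one in the pooled PBRM1 list and 72.1% in the pooled BRG1 list, 52.2% had one in all 3 PBRM1 replicates, 61.4% in all 3 BRG1 replicates and 51.9% in all 6. The core genes have a median of 6.5 TSSs against 3 for all protein-coding genes, which widens the window searched. With only the most upstream TSS of each gene, 8 of the 10 genes had a peak in all 6 replicates, against 48.1% of all genes, and the exceptions were *Smarcd3* and *Actl6a*. When the peak had to cover a TSS, the count was again 8 of 10, against 39.4%, and the exceptions were *Smarcc2* and *Smarcd3*.

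The level at these promoters was ordinary by fold enrichment. MACS gives for each peak a fold enrichment, which is the number of fragments piled up at the summit over that given by the local background. The median over the strongest promoter peaks of the 10 genes was 7.75, 6.27 and 5.76 in PBRM1 replicates 1, 2 and 3, and the median over all gene promoters with a peak was 7.52, 6.79 and 5.73. In BRG1 replicates 1, 2 and 3 it was 8.31, 8.35 and 8.81, beside 8.09, 8.13 and 8.23 for all gene promoters. By this measure the core genes thus lay near the middle of the list in each library, and they were spread widely around it. The pileup at the first promoter site, not divided by the background, was also ranked in the pooled lists. *Smarca4*, *Smarca2*, *Smarcb1*, *Smarcd2* and *Actl6a* lay at the 82.7th to 97.3rd percentile for PBRM1 and the 78.5th to 95.3rd for BRG1. The other genes lay at the 36.0th to 67.6th and the 36.1st to 60.5th.

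**Figure D1:**
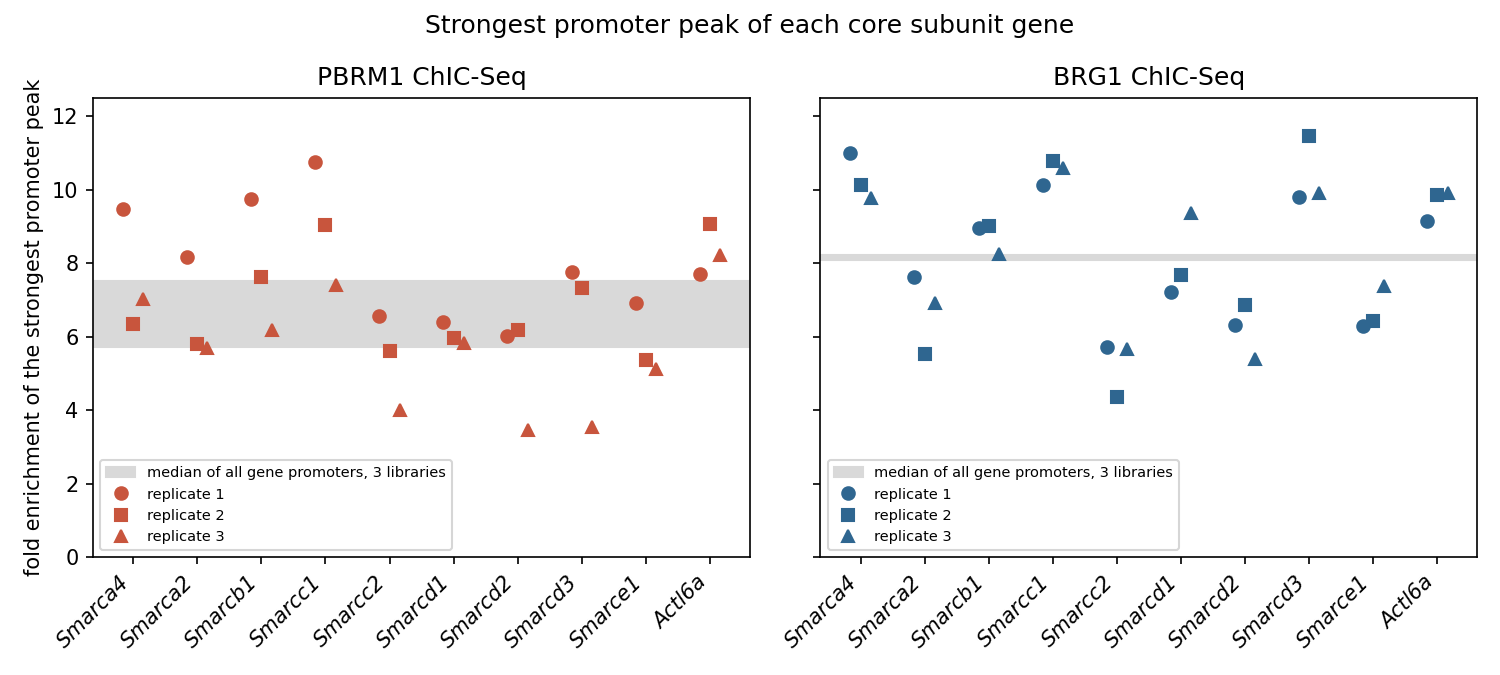
Fold enrichment of the strongest promoter peak (y axis, linear) of the 10 genes in the 3 PBRM1 and the 3 BRG1 libraries, 1 point per library, with a grey band that spans the 3 libraries' medians over all gene promoters with a peak. In every BRG1 library *Smarca2*, *Smarcc2*, *Smarcd2* and *Smarce1* lie below the band, and *Smarca4*, *Smarcc1*, *Smarcd3* and *Actl6a* lie above it.

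The ATPase genes came first. *Smarca4*, on chr9 (21616169 to 21704230, plus strand), had 1 promoter site with replicate peaks, chr9:21615633-21616821, with a fold enrichment of 9.48, 6.35 and 7.02 in the PBRM1 replicates (7.62 ± 1.64, SD, n = 3) and 11.0, 10.1 and 9.78 in the BRG1 replicates (10.3 ± 0.635, SD, n = 3). The BRG1 summits of the 3 replicates lay within 2 bp of each other, 163 bp upstream of the TSS in the pooled list, inside the sequence shown, which holds 3 SP/KLF strings and 1 NRF1 string. The pooled PBRM1 and BRG1 summits fell on the same base. A further BRG1 peak at an internal start, chr9:21635749-21635930, was in the pooled list only, at 4.94. A BRG1 peak was thus called at the start of the gene for BRG1 itself in each library, at a narrow position.

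*Smarca2*, on chr19 (26605050 to 26778322, plus strand), is the longest of the 10 genes, 173273 bp, and has 42 TSSs. Its first promoter site, chr19:26604523-26605485, had a PBRM1 fold enrichment of 8.18, 5.80 and 5.69 (6.56 ± 1.40, SD, n = 3) and a BRG1 fold enrichment of 7.64, 5.50 and 6.91 (6.68 ± 1.08, SD, n = 3). A broader and weaker site followed in the first intron, chr19:26605833-26607767, where PBRM1 had 3.77 ± 0.651 and BRG1 had 4.00 ± 0.300 (SD, n = 3 each). Both sites were found in all 6 replicates. Far downstream, 142876 bp from the first TSS, a cluster of internal starts that gives a short protein-coding transcript had a site at chr19:26747567-26748517. BRG1 peaks were called there in replicates 1 and 2, at 4.91 and 5.53, and not in replicate 3, while PBRM1 had no replicate peak and 2.97 in the pooled list, against 6.24 for pooled BRG1. The 200 bases upstream of the shown internal start hold 42.0% GC, a CpG observed-to-expected ratio of 0.227 and none of the strings searched. The values before the first TSS are 70.0% and 0.905. Most of the bases shown for the internal start lie upstream of the site. They end at chr19:26747599, before the pooled BRG1 summit at chr19:26747926. The start nearest that summit is a later one, chr19:26748189. The composition at this summit was not measured.

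The scaffold genes *Smarcc1* and *Smarcc2* encode paralogous subunits around which the complex is assembled. *Smarcc1*, on chr9, had 2 strong sites and both were present in all 6 replicates. The first, chr9:110116827-110117962, lies between *Smarcc1* and the start of *Dhx30*, an RNA helicase gene, and cannot be given to either gene. Its fold enrichment was 8.60, 9.05 and 4.85 for PBRM1 and 7.53, 8.76 and 7.34 for BRG1. The other, chr9:110131506-110132645, lies over internal protein-coding starts 14273 bp downstream. It reached 10.7, 6.51 and 7.40 for PBRM1 and 10.1, 10.8 and 10.6 for BRG1 (10.5 ± 0.342, SD, n = 3). Here the summits of the 3 BRG1 replicates lay within 9 bp, beside the start that the printed sequence ends at. Those of PBRM1 lay within 2 bp, beside a later start of the gene, chr9:110132037. The printed sequence holds an ETS string and an NRF1 string that reads on both strands. The internal start was the stronger of the 2 sites in all 3 BRG1 replicates and in PBRM1 replicates 1 and 3, and the weaker in PBRM1 replicate 2.

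*Smarcc2*, on chr10, had the lowest mean BRG1 fold enrichment of the 10 genes. Its promoter site, chr10:128458393-128459489, had 6.58, 5.63 and 4.01 for PBRM1 (5.41 ± 1.30, SD, n = 3) and 5.71, 4.36 and 5.68 for BRG1 (5.25 ± 0.772, SD, n = 3), at the 5.95th to 20.0th percentile of all gene promoters with a BRG1 peak. The replicate summits were also displaced, at −659 to −442 bp from the nearest TSS for PBRM1 and at −683 to −331 bp for BRG1. A negative distance is upstream. The pooled PBRM1 summit lay at −597 bp, but the pooled BRG1 summit lay closer, at −188 bp. The microRNA gene *Mir8105* also starts within 2000 bp of this site. With peaks at a −log10 q of at least 5 only, *Smarcc2* was the 1 gene of 10 that no longer had a peak in all 6 replicates, and 42.5% of all genes had one.

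The 3 *Smarcd* genes encode alternative subunits of which 1 enters each complex, and which bridge the complex to transcription factors. *Smarcd1* had a fold enrichment of 6.39, 5.98 and 5.82 for PBRM1 and 7.21, 7.69 and 9.38 for BRG1 at 1 site, chr15:99701813-99702738, which is also within 2000 bp of the start of the antisense gene *Gm34939*. *Smarcd2* had 6.03, 6.19 and 3.45 for PBRM1 and 6.32, 6.86 and 5.39 for BRG1 at chr11:106272666-106273419. Both genes had no gene-body peak in any list.

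*Smarcd3* differed in form. At the first promoter, chr5:24624132-24625102, BRG1 had a fold enrichment of 9.80, 11.5 and 9.92 (10.4 ± 0.924, SD, n = 3), while PBRM1 had 7.78 and 7.34 in replicates 1 and 2 and no peak in replicate 3, which had the most fragments and the fewest peaks of the 3. At an internal start 22161 bp downstream, chr5:24601613-24603363, BRG1 had 3.61, 3.35 and 3.60, and PBRM1 had 3.93 and 3.53 in replicates 2 and 3 and no peak in replicate 1. *Smarcd3* was the only one of the 10 genes without any single promoter site in all 6 replicates. The missing PBRM1 calls fell in different replicates at its 2 sites, and in PBRM1 replicate 3 its promoter peak is the internal one. The 200 bases before its first TSS hold 55.0% GC, below the 70.0% to 71.0% of the first promoters of the ATPase genes. They hold none of the strings. The bases around its summit did not share this. Within 150 bases to each side of the pooled BRG1 summit, GC was 69.8%, beside 68.8% for *Smarca4* and 67.1% for *Smarca2*. That window of *Smarcd3* held the SP/KLF string.

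*Smarcb1*, *Smarce1* and *Actl6a* complete the core. *Smarcb1* encodes a core subunit that contacts the nucleosome and is lost in rhabdoid tumors. Its promoter site, chr10:75920846-75922215, had 9.75, 7.62 and 6.19 for PBRM1 and 8.98, 9.01 and 8.24 for BRG1. An annotated TSS of the metalloproteinase gene *Mmp11* also lies within 2000 bp of this site. *Smarce1*, which encodes an HMG-box subunit, had 6.93, 5.36 and 5.12 for PBRM1 and 6.30, 6.43 and 7.39 for BRG1 at chr11:99229914-99231253. *Actl6a*, which encodes an actin-related subunit, had 7.72, 9.07 and 8.24 for PBRM1 and 9.14, 9.86 and 9.93 for BRG1. Its site, chr3:32708181-32709376, lies 2318 bp downstream of the most upstream TSS, over a later group of starts, and no list held a peak over the most upstream one.

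Peaks in the gene bodies were counted next. Summed over the 10 genes, gene-body peaks numbered 5, 4 and 2 in the PBRM1 replicates (3.67 ± 1.53, SD, n = 3) and 7, 4 and 6 in the BRG1 replicates (5.67 ± 1.53, SD, n = 3). The groups overlapped, and a two-sided exact permutation test gave p = 0.3, where 0.1 is the smallest possible. Per 1000 peaks of the list the numbers were 0.154 ± 0.0632 and 0.147 ± 0.0334, with p = 1 by the same exact test. In the pooled lists 5 of the 10 genes had a gene-body PBRM1 peak, against 29.0% of all protein-coding genes, and 6 had a BRG1 peak, against 36.4%. The core genes are longer than most, with a median of 28042 bp against 17403 bp, and *Smarca4* and *Smarca2* held 12 of the 19 gene-body peaks of the pooled BRG1 list. Per 100 kb of gene body, the pooled lists held 1.79 PBRM1 peaks, against 1.94 over all protein-coding genes, and 4.86 BRG1 peaks, against 3.34. In the replicates the means were 0.938 ± 0.391 against 0.530 ± 0.0906 for PBRM1 and 1.45 ± 0.391 against 1.12 ± 0.100 for BRG1 (SD, n = 3 each). Whether length accounts for the counts was not tested.

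Only 1 of the 30 gene-body sites was found in all 6 replicates. This site, chr10:75898791-75899530, lies in the seventh intron of the 9-exon protein-coding transcripts of *Smarcb1*, 22536 bp downstream of the first TSS and 2312 bp from the 3′ end of the gene. The nearest start of another gene, *Derl3*, is 4507 bp away. Its fold enrichment was 4.96, 6.12 and 7.83 for PBRM1 and 6.48, 6.16 and 6.27 for BRG1. BRG1 varied little (6.30 ± 0.165, SD, n = 3), whereas PBRM1 varied more (6.30 ± 1.44, SD, n = 3). Of all gene-body peaks in the pooled BRG1 list, 4.30% had a peak in all 6 replicates, and of the 19 in the core genes it was 1. Among peaks more than 2000 bp from any TSS it ranked at the 82.6th to 85.4th percentile in the BRG1 replicates and from the 57.3rd to the 98.5th in the PBRM1 replicates. It was singled out after its values were seen. The sequence shown around its summit contains no CpG, in contrast to the promoters, and holds 1 AP-1 string, TGAGTCA. Of the larger promoter windows described later, 3.49% hold this string. Neither trait was measured over other gene-body peaks, so whether they are unusual for such a site is not known.

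The remaining gene-body sites rested on few libraries. Of the 30, in classes that overlap, 15 were found in 1 replicate, 11 in a pooled list only, 12 in BRG1 and no PBRM1 replicates, and 5 in PBRM1 and no BRG1 replicates. In *Smarca4* the best supported was an intronic BRG1 site at chr9:21677821-21678523, with 4.81 and 4.33 in replicates 2 and 3, near the start of the small RNA gene *Gm27373*. In *Smarca2* the best supported was a site at chr19:26630675-26631230, with PBRM1 peaks of 4.88 and 3.78 in replicates 1 and 2 and a BRG1 peak of 5.48 in replicate 1. Another at chr19:26619669-26619939 had PBRM1 peaks of 5.49 and 4.15 in replicates 1 and 2 and no BRG1 replicate peak, although the pooled BRG1 list held one of 4.20. Of the 26 promoter sites, 11 were in all 6 replicates, over 9 genes, 5 were in BRG1 and no PBRM1 replicates and 0 were in PBRM1 and no BRG1 replicates. BRG1 lists hold more peaks throughout, and whether the sites of 1 antibody follow from this was not tested. The shares of such sites over all protein-coding genes were not counted, so these counts do not show a trait of the core genes.

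**Figure D2:**
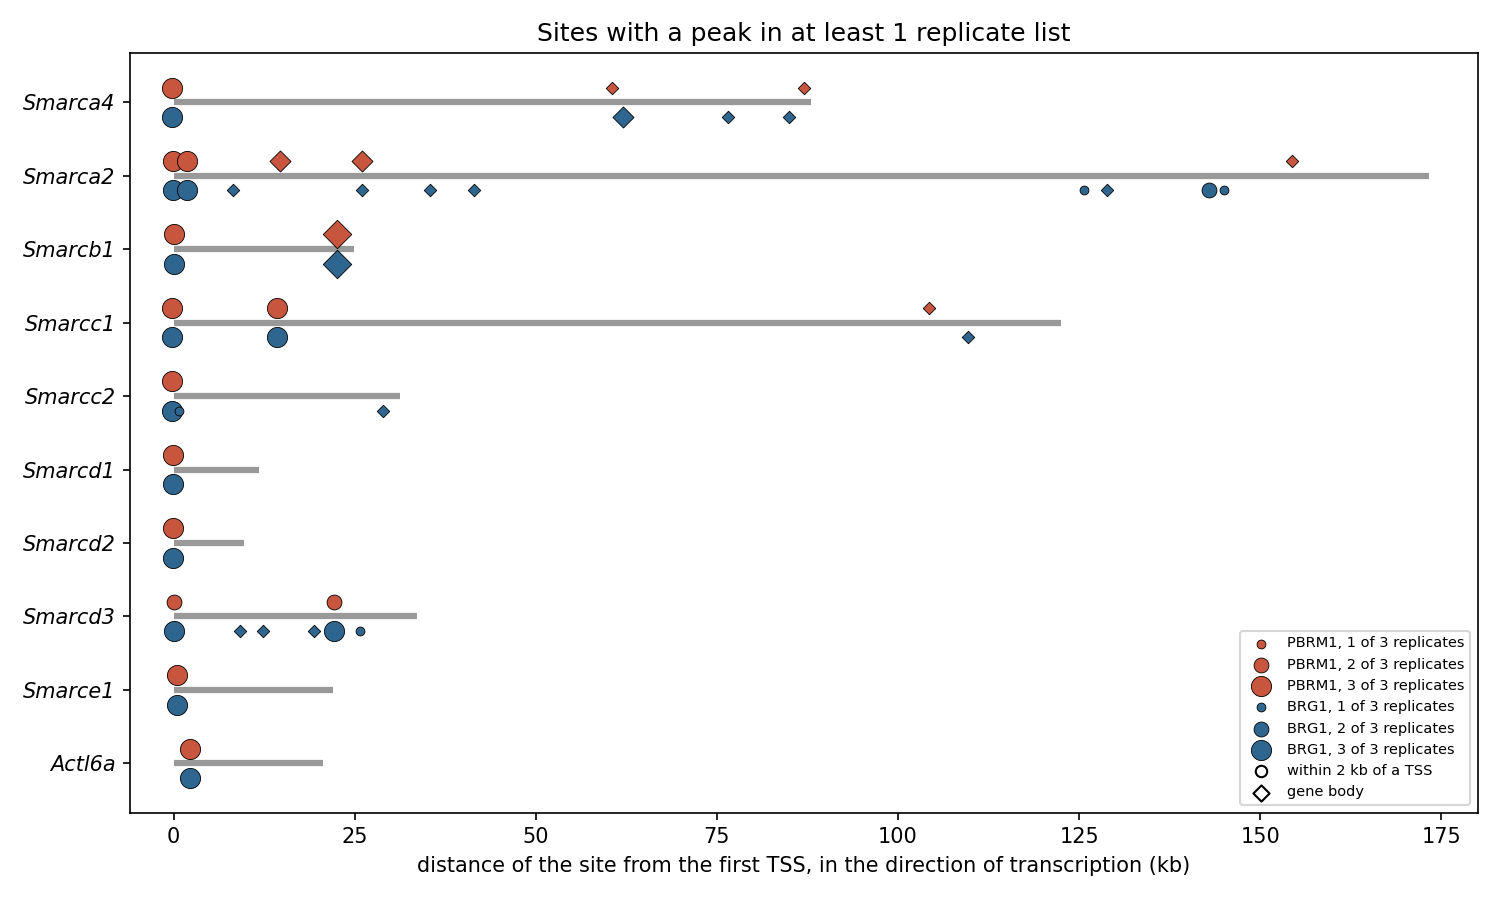
Map of the sites with a peak in at least 1 replicate, by distance from the first TSS in kb along the direction of transcription (x axis) for each gene (grey bar, gene length). PBRM1 is drawn above and BRG1 below the bar, circles are promoter sites, diamonds are gene-body sites, and size gives the number of replicates. The largest diamonds, of both antibodies, are the *Smarcb1* intron site, and *Smarcd3* has no large PBRM1 circle.

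The promoter sequences shared a CpG-rich composition. In windows of 150 bases to each side of the pooled BRG1 summit the median GC content of the 10 genes was 67.4% and the CpG observed-to-expected ratio 0.879, beside 64.8% and 0.790 for all 15818 promoter windows. The SP/KLF string GGGCGG was present, on either strand, in 9 of 10 windows (all but *Smarcd1*), against 66.0% of all windows. The NRF1 string GCATGCG was present in *Smarca4*, *Smarcb1* and *Smarcc1*, against 6.18%, and the ETS string CCGGAAG in *Smarca2* and *Smarcc1*, against 15.1%. The string CCAAT was present in *Smarcd2*, *Smarce1* and *Actl6a*, against 34.2%, and the YY1 string ATGGCGG in *Smarcb1*, against 9.17%. No window of the 10 genes held TATAAA, which 4.10% of all windows hold, the AP-1 string, which 3.49% hold, or the CREB/ATF string TGACGT, which 10.6% hold. None of the strings contains another, and a match describes these letters only. RefSeq (GRCm38.p6) promoters of 300 bases matched 9 of the 10 genes, without *Smarce1*, and partly differed from these windows. They held the NRF1 string in the same 3 genes and the ETS string in the same 2, against 4.57% and 11.9% of all RefSeq promoters, and the SP/KLF string in all 9, against 47.8%. They held TATAAA in *Smarcd2*, against 12.1%, the AP-1 string in *Smarcb1* and *Smarca2*, against 4.65%, and the YY1 string in *Smarcd1* and not *Smarcb1*, against 5.38%. The string CCAAT was in 0 of the 9, against 37.8%, and the CREB/ATF string in 0, against 8.73%.

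To determine whether either protein favored a gene relative to the other, the fold enrichments of 11388 protein-coding genes with a promoter peak in all 6 replicates were quantile normalized on the log2 scale and compared with limma. None of the 10 genes passed an adjusted p of 0.05. Among all genes, 99 (0.869%) were relatively higher and 131 (1.15%) relatively lower for PBRM1, and 2378 had an unadjusted p under 0.05. *Smarcd3* had the largest difference of the 10, −0.51 (SE 0.20, 95% interval −0.93 to −0.083), with a limma adjusted p of 0.166, and was the 1 gene of the 10 with an unadjusted p under 0.05. Without PBRM1 replicate 3, where the peak is at the internal start, the difference was −0.22, with a limma adjusted p of 0.381, and by pileup the difference was 0.070 with a limma adjusted p of 0.842. *Smarcc2* stood at 0.31 (95% interval −0.0080 to 0.63) and *Smarca2* at 0.29 (95% interval −0.033 to 0.62). Both moved with single libraries, *Smarcc2* to 0.19 and *Smarca2* to 0.17 without BRG1 replicate 2. By pileup *Smarca2* stood at 0.69, with a limma adjusted p of 0.393. This pileup value uses the internal *Smarca2* peak in BRG1 replicate 2, with a pileup of 18, where the first promoter had 56. By fold enrichment these sites had 5.53 and 5.50 in that library. *Smarca4* stood at −0.11 (95% interval −0.43 to 0.21). The intervals of the 9 genes other than *Smarcd3* include 0. The calls over all genes fell to 0 in each direction without PBRM1 replicate 2, BRG1 replicate 1 or BRG1 replicate 3.

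**Figure D3:**
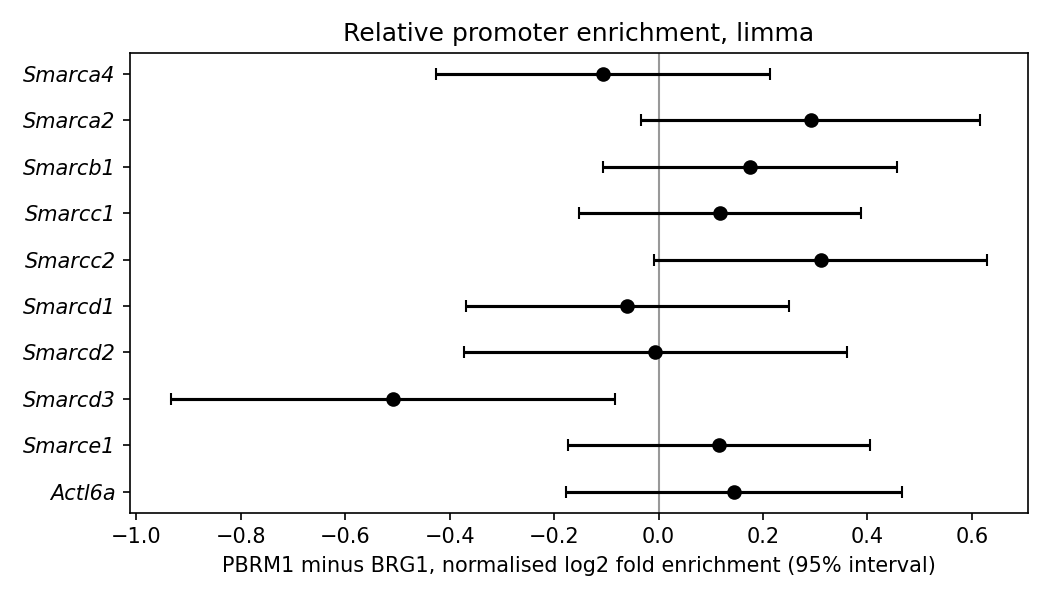
Difference between PBRM1 and BRG1 in normalised log2 fold enrichment at the strongest promoter peak (x axis) for each of the 10 genes, with the 95% interval from limma over 3 against 3 libraries. The interval of *Smarcd3* lies below 0 before adjustment for 11388 genes, and the other 9 cross 0.

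The paralogs were then compared within each library, where depth and antibody are the same for both genes. The fold enrichment of *Smarca4* exceeded that of *Smarca2* in all 6 replicates, with a mean log2 ratio of 0.22 ± 0.087 in the PBRM1 and 0.63 ± 0.21 in the BRG1 replicates (SD, n = 3 each). In BRG1 replicate 2 the strongest *Smarca2* peak was the internal one. *Smarcc1* exceeded *Smarcc2* in all 6, by 0.76 ± 0.11 and 1.01 ± 0.26. In PBRM1 replicate 2 the strongest *Smarcc1* peak was the one between *Smarcc1* and *Dhx30*, at 9.05. The internal start had 6.51 there, and *Smarcc2* had 5.63. For both pairs and each antibody the two-sided exact sign-flip test gave p = 0.25, the smallest that 3 replicates allow. The adjusted p was 0.312 over 10 tests. Among the *Smarcd* genes, *Smarcd2* was below *Smarcd3* in all 6 replicates (−0.21 ± 0.17 and −0.75 ± 0.12), *Smarcd1* was above *Smarcd2* in 5 of 6, and *Smarcd1* was below *Smarcd3* in 5 of 6, the exception being PBRM1 replicate 3.

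These orders depend on the measure for every pair except *Smarcc1* and *Smarcc2*. By the pileup at the summit, which is not divided by the local background, *Smarcc1* exceeded *Smarcc2* in all 6 replicates (0.84 ± 0.044 and 1.06 ± 0.29). In PBRM1 replicate 2 this ratio again uses the peak between *Smarcc1* and *Dhx30*. *Smarca4* was below *Smarca2* in all 3 PBRM1 replicates (−0.47 ± 0.063), and in BRG1 replicates 1 and 3 (−0.17 and −0.16) but not 2 (1.85). In BRG1 replicate 2 this ratio uses the internal *Smarca2* peak, with a pileup of 18, and the first promoter of *Smarca2* had a pileup of 56 there, against 65 for *Smarca4*. *Smarcd2* was above *Smarcd3* in all 6 (0.60 ± 0.47 and 0.93 ± 0.23). The local background is computed from the 2 measures, so a pair whose order turns between them must differ in it. It is given as a description and is not a test. At the first promoter of *Smarca2* it was 7.54 ± 0.744 fragments in the PBRM1 and 10.6 ± 1.55 in the BRG1 replicates, at the 98.8th to 99.4th percentile of all gene promoters with a peak, and at *Smarcd2* it was 6.01 ± 1.20 and 9.31 ± 1.63, at the 96.1st to 98.5th percentile (SD, n = 3 each). At *Smarca4* it was 4.36 ± 0.487 and 6.28 ± 0.896, and at the first promoter of *Smarcd3* 2.25 ± 0.281 for BRG1. By pileup, the first promoter of *Smarca2* ranked at the 93.1st to 98.4th percentile in the PBRM1 and the 83.4th to 97.5th in the BRG1 replicates. That of *Smarcd2* ranked at the 55.7th to 88.5th and the 74.6th to 89.8th. By fold enrichment *Smarca2* ranked at a mean percentile of 47.2 for PBRM1 and 31.8 for BRG1, and *Smarcd2* at 22.9 and 25.6. This background was looked at after the orders were seen to depend on the measure.

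**Figure D4:**
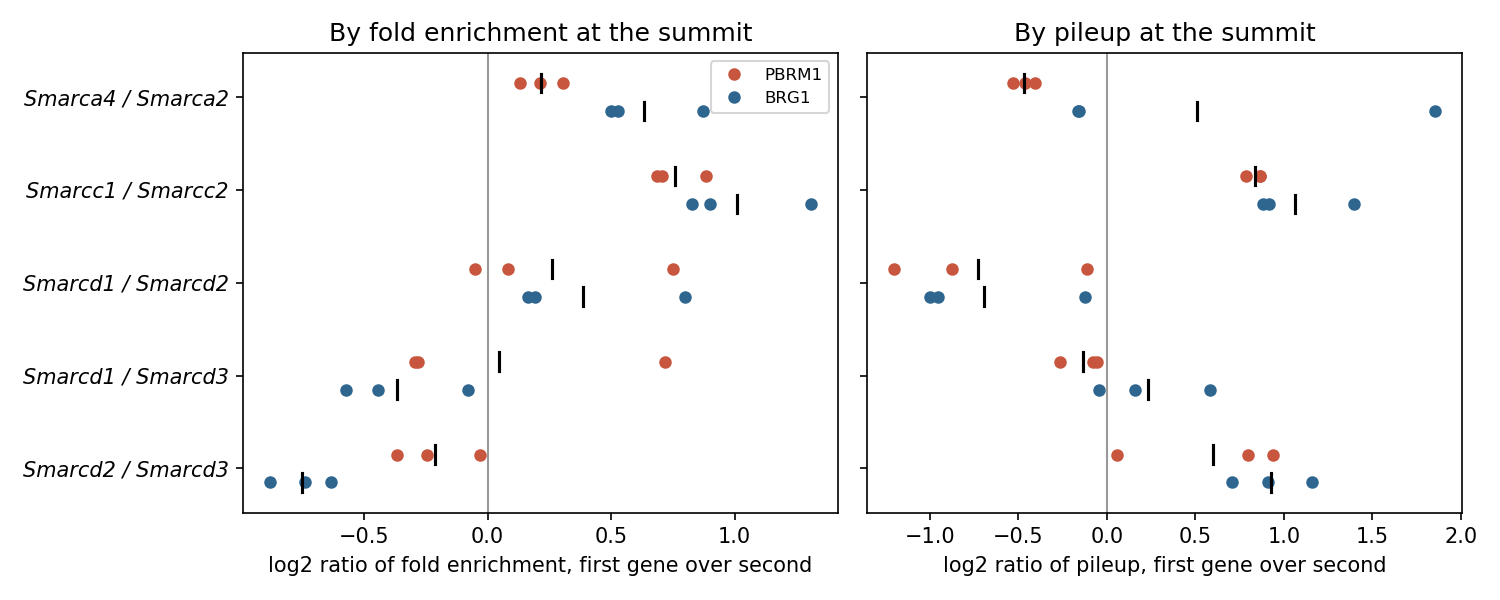
Log2 ratio of the first gene over the second for 5 paralog pairs, by fold enrichment (left) and by pileup (right), 1 point per library and a black line at the mean of the 3 PBRM1 or BRG1 libraries. All points of *Smarcc1* over *Smarcc2* lie right of 0 in both panels, whereas those of *Smarcd2* over *Smarcd3* lie left of 0 by fold enrichment and right of it by pileup.

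At the base-pair level the proteins were placed alike. The strongest pooled PBRM1 and BRG1 peaks of each gene overlapped by 82.3% to 100.0% of the PBRM1 peak and 70.3% to 98.3% of the BRG1 peak. Their summits were a median of 75.5 bp apart, between 0 bp for *Smarca4* and 409 bp for *Smarcc2*, and the median over 14866 protein-coding genes with both was 70.0 bp. At the 11 promoter sites found in all 6 replicates, the summits of 3 replicates spanned a median of 77.0 bp for BRG1 and 217 bp for PBRM1.

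Other SWI/SNF genes were listed for comparison, namely those of accessory subunits of BAF, PBAF and noncanonical BAF, and *Actb* and *Actl6b*, which encode actin and a neuronal actin-related subunit. Of these 19 genes, 16 had a PBRM1 promoter peak in all 3 replicates, against 52.2% of all protein-coding genes. All 19 had a BRG1 peak in all 3, against 61.4%. The number of TSSs of these genes was not compared. The 3 without a peak in 1 PBRM1 replicate were *Brd7* and *Phf10*, which encode PBAF subunits, and *Arid1b*, which encodes a BAF subunit. *Brd7* had 4.07 ± 0.728 for PBRM1 (SD, n = 2) and 7.06 ± 1.05 for BRG1 (SD, n = 3). *Phf10* had 9.16 ± 1.05 (SD, n = 2) and 10.9 ± 0.499 (SD, n = 3), and *Arid1b* 4.45 ± 1.02 (SD, n = 2) and 4.23 ± 0.136 (SD, n = 3). None of the 16 with peaks in all 6 passed the limma test, in which 2 had an unadjusted p under 0.05. Their median difference of 0.073 stood beside 0.12 for the 10 core genes and 0.0073 for all genes.

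The genes most like the ATPase genes over the 6 libraries were found by the Euclidean distance of normalised log2 fold enrichment over 11388 genes. For *Smarca4* they were *Gid4* and *Atpaf2* (both 0.173) and *Tomm22* (0.197). Whether *Gid4* and *Atpaf2*, with their equal distances, were given the same promoter peak was not examined. For *Smarca2* they were *Tbc1d4* (0.193), *Tbc1d8* (0.194) and *Ap5b1* (0.201).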

How the data were processed

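According to their methods, the authors trimmed read pairs, aligned them to GRCm38/mm10 with Bowtie2, removed low-quality and duplicate pairs and called peaks with MACS 2.2.7.1, per replicate and on the pooled fragments, without control at q 0.05 with a local background over 10000 bp. Each deposited list gives, as the authors' call wrote it, the pileup signal at the summit, the fold enrichment (a ratio to the local background) and the −log10 of the q-value. The IgG libraries were not used here.

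Peaks were assigned to GENCODE vM21 genes (GRCm38.p6) with a minimum overlap of 1 bp in Python 3.11.15 (numpy 2.4.6, pandas 2.3.3, scipy 1.17.1). A gene's value was the fold enrichment of its strongest promoter peak. Overlapping peaks of the 8 lists were merged into sites. limma 3.58.1 (R 4.3.3) with Benjamini-Hochberg adjustment compared the antibodies. Counts of peaks were compared by exact permutation tests. Peak assignment and the limma fit were tested on simulated data. The implied local background is (pileup + 1) / fold enrichment − 1, and its smallest value in each list lay within 1% of the genome-wide expectation.

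All 10 genes are named, with other SWI/SNF genes that missed a replicate and the 3 genes nearest to each ATPase gene. Neighbours with a TSS within 2000 bp of a promoter site described above are also named. These lists, and the comparisons, were chosen with earlier results of these data known. Peak thresholds, promoter distances, TSS sets, normalization and left-out replicates were varied.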

Additional observations from a re-analysis of the deposited data

How the results depend on the processing

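The count of 10 genes with a promoter peak in all 6 replicates was 9 with a −log10 q of at least 5, 8 with the most upstream TSS or with a peak over a TSS (both chosen after seeing the data), and 10 under all other settings, each left-out replicate included. No gene of the 10 passed the limma test under any of 11 alternatives.

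Gene-body peaks per PBRM1 and BRG1 library moved to 1 and 1.67 (0.0686 and 0.0689 per 1000 peaks) at a −log10 q of at least 5, 2 and 1 (0.1 and 0.05) with the 20000 strongest peaks of each list, 7 and 11.7 (0.297 and 0.304) with the most upstream TSS, and 6 and 11 (0.254 and 0.285) for peaks that do not cover a TSS. The difference in peaks turned to 1 with the 20000 strongest. The difference per 1000 peaks turned to −0.000214 at a −log10 q of at least 5, −0.0127 with protein-coding transcripts, −0.00334 at 5000 bp, −0.00706 with the most upstream TSS and −0.0306 for peaks that do not cover a TSS, and ranged from −0.0255 to 0.0376 without 1 replicate, lowest without PBRM1 replicate 1 and below 0 also without BRG1 replicate 2. Without 1 replicate the mean count ranged from 3 to 4.5 for PBRM1 and 5 to 6.5 for BRG1.

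The limma calls over all genes were 269 higher and 220 lower for PBRM1 with median centring, and 59 higher with peaks in at least 2 lists of each antibody. They ranged from 0 to 158 higher and 0 to 231 lower without 1 replicate, with 0 without PBRM1 replicate 2, BRG1 replicate 1 or BRG1 replicate 3, where 2131, 1768 and 1694 had an unadjusted p under 0.05. *Smarcd2* turned to 0.070 with median centring and ranged from −0.15 to 0.20 without 1 replicate, *Smarca4* from −0.19 to 0.040, *Smarcc2* from 0.19 to 0.43, *Smarca2* from 0.17 to 0.40, *Smarcd3* from −0.67 to −0.22 and *Smarcd1* from −0.16 to 0.041. *Smarcd3* turned to 0.070 by pileup.

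Of the paralog ratios, *Smarca4* over *Smarca2* for PBRM1 turned to −0.23 by −log10 q and −0.47 by pileup. *Smarcd1* over *Smarcd2* turned to −0.28 and −0.73 for PBRM1 and −0.29 and −0.69 for BRG1. *Smarcd2* over *Smarcd3* turned to 0.29 and 0.60 for PBRM1 and 0.18 and 0.93 for BRG1. *Smarcd1* over *Smarcd3* turned by pileup to −0.13 for PBRM1 and 0.23 for BRG1, and ranged from −0.29 to 0.22 for PBRM1 without 1 replicate, being negative without replicate 3. The cause of these changes was not tested, and the local background given above is computed from pileup and fold enrichment themselves.

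Both antibodies use the replicate numbers 1 to 3, but same-numbered libraries did not deviate together over 11388 genes (Pearson r across genes of −0.022, −0.0011 and 0.0036), so the numbers were not taken to pair the samples. With the replicate block, limma called 137 genes higher and 204 lower, none of the 10, the gene-body difference of −2 had an exact p of 0.5, and the difference of 0 in genes with a promoter peak and 0.00651 in gene-body peaks per 1000 had p = 1. A pooled list alone held 8 promoter and 11 gene-body sites, and whether depth sets this was not tested.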
